A study of Mus musculus with 9 samples.

Results

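The regions described here are CpG-dense tiles of the mouse autosomes, windows of 1000 bases that hold so many covered CpGs that they resemble CpG islands. A tile counted as CpG-dense when at least 40 rows of the WT table, each 1 CpG position on 1 strand, fell into it. Within a tile, a position was usable when each of the 5 pools had 10 reads or more there and TKO had at least 0.5 times the coverage of WT. With at least 10 such positions required, 9151 tiles remained of 9314 dense ones, out of 216670 autosomal tiles with a row of the WT table. Across all densities, 19439 autosomal tiles had enough positions to be measured. A CpG-dense tile held a median of 64 rows, at most 247, and a median of 33 usable positions. Whether each tile is an annotated CpG island was not tested, since tiles were chosen on covered CpGs alone.

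The measurements came from reduced representation bisulfite sequencing, in which the enzyme MspI cuts at CCGG, so that fragments come mainly from CpG-rich DNA. All 9 samples were mouse embryonic stem cells of the J1 line at passages 7 to 10, and all carried the Dnmt TKO background, the loss of the DNA methyltransferases. TKO (1 sample) had no construct, and C (2 samples) is listed without one. WT, WWD and R (2 samples each) were TKO cells that expressed WT, WWD or R Dnmt3a2, where Dnmt3a2 is a short form of Dnmt3a, an enzyme that sets new methylation. The title of the series speaks of an engineered histone-recognition domain in Dnmt3a, and the labels do not say which residues WWD and R stand for. Each group has 1 table, which the labels name for both of its samples, so each group is 1 pool with no spread between replicates. The amount of each construct in the cells was not measured. All intervals and tests below compare the reads of 2 pools, cover counting error only and do not compare conditions across replicates.

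CpG islands are stretches of CpG-rich DNA that mark the promoters of most housekeeping and many developmental genes, and they are normally kept free of DNA methylation. Proteins with a CXXC zinc finger bind their unmethylated CpGs and bring in enzymes that methylate histone H3 at lysine 4. The ADD domain of Dnmt3a binds the tail of histone H3 when lysine 4 is unmethylated, and methylation of that lysine weakens the binding.

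The sequences of 6 promoters show what such tiles hold. They come from the RefSeq promoter table of GRCm38.p6, which spans 250 bases before to 50 after the start of transcription, and were placed on the deposited mm9 positions by matching the spacing of their CpGs. Each is printed 5′ to 3′ on the gene's strand. Capital CG marks each usable CpG at 5% or more in WT, and in WWD for Upf2. Lowercase cg marks either a CpG under 5% or one that was not usable. Usable CpGs were 8 of 28 in Dazl, 16 of 38 in Ddx4 and 8 of 24 in Mael. They were 20 of 29 in Atf7ip, 11 of 40 in Klf4 and 10 of 27 in Upf2. In Dazl all 8 lie at the downstream end, and the rest of that window had no usable CpG. The first 3 promoters belong to germline genes whose promoters gained methylation: Dazl at chr17:50432896-50433195, Ddx4 at chr13:113442469-113442768 and Mael at chr1:168168826-168169125, all on the minus strand.
Dazl: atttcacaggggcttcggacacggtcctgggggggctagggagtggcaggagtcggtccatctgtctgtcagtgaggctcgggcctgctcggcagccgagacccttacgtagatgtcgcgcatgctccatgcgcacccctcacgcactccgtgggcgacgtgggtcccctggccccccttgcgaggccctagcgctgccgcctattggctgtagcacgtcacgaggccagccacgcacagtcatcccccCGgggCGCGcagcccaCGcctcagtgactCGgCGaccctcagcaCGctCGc
Ddx4: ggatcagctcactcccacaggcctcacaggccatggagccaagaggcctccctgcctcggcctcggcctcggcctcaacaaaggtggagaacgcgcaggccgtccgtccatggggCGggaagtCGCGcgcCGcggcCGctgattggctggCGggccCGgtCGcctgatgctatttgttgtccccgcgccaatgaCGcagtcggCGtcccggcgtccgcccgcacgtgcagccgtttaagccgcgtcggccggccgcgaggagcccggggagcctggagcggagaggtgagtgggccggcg
Mael: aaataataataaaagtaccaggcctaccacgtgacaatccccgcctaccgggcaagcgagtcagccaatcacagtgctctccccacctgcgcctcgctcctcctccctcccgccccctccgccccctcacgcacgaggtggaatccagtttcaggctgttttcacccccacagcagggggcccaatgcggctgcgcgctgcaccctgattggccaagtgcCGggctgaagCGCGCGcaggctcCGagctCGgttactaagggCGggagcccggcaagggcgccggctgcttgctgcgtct
The next is Atf7ip, at chr6:136467122-136467421 on the plus strand, in the promoter tile with the highest WT level.
Atf7ip: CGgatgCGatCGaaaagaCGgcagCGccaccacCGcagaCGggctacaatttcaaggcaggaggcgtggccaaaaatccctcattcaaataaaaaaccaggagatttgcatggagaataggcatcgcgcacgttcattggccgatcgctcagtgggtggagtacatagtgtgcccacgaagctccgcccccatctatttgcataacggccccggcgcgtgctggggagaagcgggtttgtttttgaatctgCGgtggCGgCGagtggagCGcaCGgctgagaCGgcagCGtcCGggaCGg
Klf4, at chr4:55545298-55545597 on the minus strand, is shown as a promoter that stayed near the TKO level, and none of its 11 usable CpGs is in capitals.
Klf4: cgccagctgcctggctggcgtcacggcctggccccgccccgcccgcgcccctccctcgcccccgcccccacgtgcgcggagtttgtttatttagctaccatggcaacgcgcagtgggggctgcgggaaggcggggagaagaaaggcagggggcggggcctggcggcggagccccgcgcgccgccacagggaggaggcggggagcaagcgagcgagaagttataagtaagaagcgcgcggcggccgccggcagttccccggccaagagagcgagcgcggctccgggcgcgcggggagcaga
Upf2, at chr2:5872265-5872564 on the plus strand, lies in the tile where WWD exceeded WT and R by the largest margin.
Upf2: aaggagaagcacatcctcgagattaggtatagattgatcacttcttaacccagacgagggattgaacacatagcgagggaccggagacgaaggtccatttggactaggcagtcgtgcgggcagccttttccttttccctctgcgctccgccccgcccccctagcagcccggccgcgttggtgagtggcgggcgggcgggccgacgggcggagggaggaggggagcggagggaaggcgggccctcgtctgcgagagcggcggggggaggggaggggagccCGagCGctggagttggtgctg

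Methylation of the CpG-dense tiles was low in every pool. The mean tile level, the mean percent of reads with C over a tile's positions averaged over tiles, was 0.723% in R, 0.651% in WT and 0.395% in WWD, against 0.141% in C and 0.133% in TKO. The medians were closer together, at 0.252%, 0.223%, 0.209%, 0.117% and 0.111% in the same order. WT, WWD and R thus lay above TKO and C, and WWD lay between the knockout and the other constructs in the mean but close to WT in the median. Summed reads gave 0.666% for R (95% Wilson interval 0.664 to 0.668), 0.634% for WT (0.632 to 0.636), 0.353% for WWD (0.351 to 0.354) and 0.123% for TKO (0.122 to 0.124). Each pool had between 42655914 and 55246588 read calls in these tiles. Median coverage of a position ran from 119 reads in C to 156 in R. A low level in a pool of cells can come from a few cells with much methylation or from many with little, and these cannot be told apart. The mitochondrial genome, measured at 152 positions, stood at 0.129% in WWD, 0.125% in TKO, 0.0963% in WT, 0.0830% in R and 0.0825% in C. These values are of the size of the tile levels in TKO and C, and their part in the differences between pools was not tested.

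**Figure D1:**
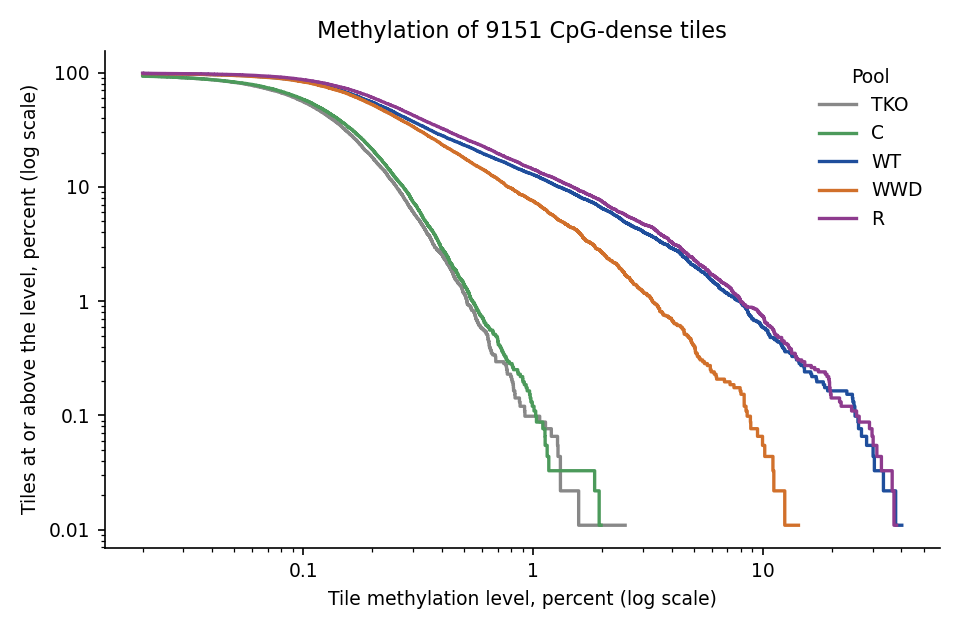
Share of the 9151 CpG-dense tiles (percent, log axis) at or above each methylation level (percent, log axis), with 1 line per pool. TKO and C end near 2%, with highest tiles at 2.51% and 1.98%, while WT and R reach 40.2% and 38.2% and WWD reaches 14.3%.

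Most positions carried no methylated read, and the gain sat in a minority of tiles. Positions at 0 made up 75.5% in R, 77.8% in WT and 80.5% in WWD, against 89.1% in TKO and 89.6% in C. The 916 tiles with the highest levels in a pool held 61.0% of the summed tile level in WT, 59.8% in R, 46.7% in WWD and 27.8% in TKO. A level of 1% or more was reached by 1174 tiles (12.8%) in WT, 688 (7.52%) in WWD and 1307 (14.3%) in R, against 9 in TKO and 11 in C. The gap widened at higher levels. At 10% or more stood 54 tiles in WT, 67 in R and 5 in WWD, and at 20% or more 15, 13 and 0, while no tile of TKO or C reached 5%.

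The tiles that reached 1% in WT were largely those that did so in R. They shared 1043 tiles, 88.8% of the WT list and 79.8% of the R list. WWD shared 627 tiles with WT, 53.4% of the WT list and 91.1% of the WWD list, so few tiles reached 1% in WWD alone of the pair. Over the 9151 tiles, Pearson's r was 0.975 between WT and R, 0.905 between WT and WWD and 0.909 between WWD and R, and Spearman's rho was 0.673, 0.585 and 0.599. These points share the depth and base composition of their tiles, and tiles are not replicates.

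Tile by tile, WT exceeded TKO in 6972 tiles (76.2%), WWD in 6881 (75.2%) and R in 7264 (79.4%), whereas C exceeded TKO in 4730 (51.7%). The median difference from TKO was 0.112 percentage points for WT, 0.0975 for WWD and 0.137 for R, against 0.00429 for C. As measured, small gains over TKO were thus about as widespread in WWD as in WT. The mitochondrial level was 0.129% in WWD and 0.125% in TKO against 0.0963% in WT, and its part in this likeness was not tested. Large differences between WWD and WT ran one way: WWD lay at least 1 point below WT in 603 tiles and at least 1 point above it in 10. R was above WT in 5316 tiles (58.1%), by 1 point or more in 202, and lay 1 point or more below WT in 59.

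CpG density, counted here as covered rows of the WT table and not from the genome sequence, ordered the levels also within the CpG-dense tiles. From 40 to 49 rows to 100 or more, the mean tile level fell from 1.09% to 0.290% in WT, from 0.583% to 0.224% in WWD and from 1.20% to 0.320% in R. TKO went only from 0.140% to 0.127% and C from 0.146% to 0.131%. The gain of WWD over TKO came to 46.5% of the WT gain in the 2201 tiles with 40 to 49 rows and to 59.8% in the 1465 tiles with 100 rows or more. Over all CpG-dense tiles it was 50.6%, and for R it was 114%. In the densest class these shares compare small gains, at 0.290% in WT and 0.224% in WWD over 0.127% in TKO. The mitochondrial level was 0.129% in WWD against 0.0963% in WT, and its part in the rise of the share with density was not tested. The 10288 measured tiles with 10 to 39 rows had a WWD gain of 31.5% of the WT gain, at a WT mean of 8.57%, and this difference between density classes has no test over samples. The 477 tiles just inside the limit, with 40 or 41 rows, had mean levels of 1.10% in WT, 0.581% in WWD and 1.22% in R. Those of the 507 tiles just outside, with 38 or 39 rows, were 1.47%, 0.714% and 1.59%. The levels were thus lower just inside the limit than just outside it, in all 3 pools.

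**Figure D2:**
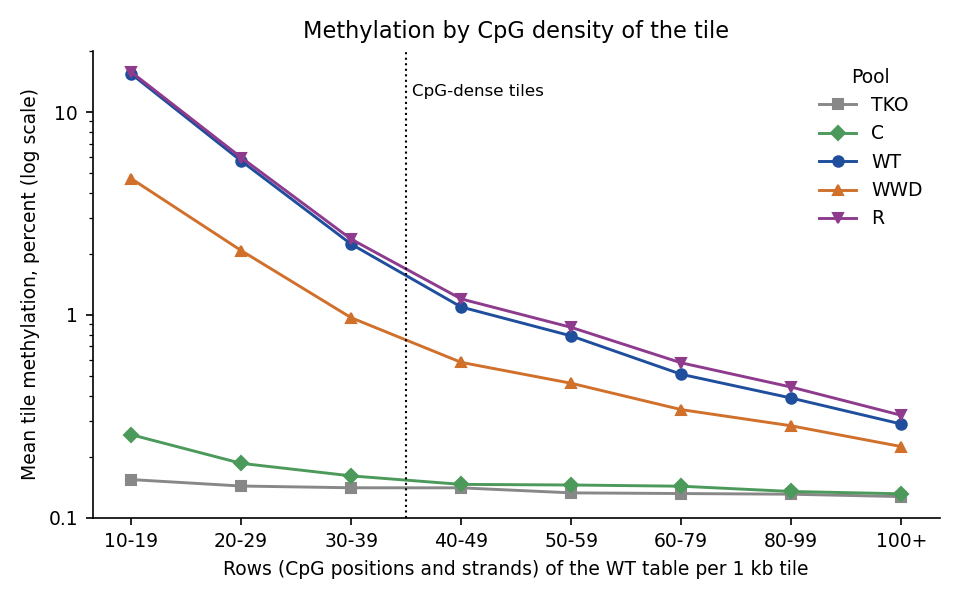
Mean tile methylation (percent, log axis) in the 5 pools by the number of rows of the WT table in a 1 kb tile; the dotted line marks the limit of 40 rows. WT falls from 15.5% at 10 to 19 rows to 0.290% at 100 rows or more, and WWD from 4.71% to 0.224%, so the lines converge with density.

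These levels depended on the depth filter. Without the requirement on TKO coverage relative to WT, the mean over 9303 tiles was 0.305% in TKO, 0.724% in WT, 0.666% in WWD and 0.848% in R, and the WWD gain came to 86.1% of the WT gain. WWD and TKO moved most and WT least among these. Why the positions removed by the filter differ was not tested.

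Few single tiles passed the test. Fisher's exact test on read counts divided by the tile's number of CpG positions, two-sided and with Benjamini-Hochberg adjustment over all 19439 tiles, called a tile where the adjusted p was under 0.01 and the levels were 10 points or more apart. WT was called above TKO in 51 CpG-dense tiles (0.557%), where the share over all tiles tested was 13.9%. R was called above TKO in 64 (0.699%, against 14.5% of all tiles) and WWD above TKO in 5 (0.0546%, against 3.7%). WWD was called below WT in 15 tiles (0.164%, against 9.75%) and below R in 18 (0.197%, against 10.5%), and above either in 0 (0% of all tiles; for R, 0 CpG-dense tiles at an unadjusted p under 0.05). Between C and TKO, and between R and WT, 0 CpG-dense tiles were called (0% of all tiles), and 0 had an unadjusted p under 0.05. No call was possible in either, since C minus TKO ran from -2.40 to 1.85 points and R minus WT from -5.72 to 5.62. At the low levels of most of these tiles the divided and rounded counts also left a small unadjusted p hardly in reach. Summed reads also called 0 CpG-dense tiles in both, while among all 19439 tiles they called 14 with R above WT and 6 with R below it. For WWD above WT, where 0% of all tiles were called, 1 CpG-dense tile had an unadjusted p under 0.05, and summed reads called 0. WWD exceeded WT by at most 2.15 points and R by at most 1.37 in CpG-dense tiles, so no call above either was possible. Summed reads raised the calls of WWD below WT to 25 and below R to 29. In simulated reads for WWD against WT, the test found 1 of 50 tiles that fell by 5 points and 0 of 50 that fell by 10. It found 20 of 50 that fell by 20 and 47 of 50 that fell by 30. The simulated falls were set in tiles of all densities, from a WT level far above that of most CpG-dense tiles. They thus do not give the reach of the test in CpG-dense tiles. Most CpG-dense tiles differed between WWD and WT by less than the 10 points that a call required.

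Ranking the tiles by their level in R, a pool that enters neither side of the comparison of WWD with WT, showed where WWD fell behind. In the 2393 tiles at 0.1 to 0.2% in R, the mean was 0.171% in both WT and WWD, against 0.124% in TKO. In the 1133 tiles at 0.5 to 1% in R, WT had 0.558% and WWD 0.414%. In the 468 tiles at 2 to 5% it was 2.73% in WT and 1.34% in WWD, and WWD exceeded WT in 21 of them. In the 67 tiles at 10% or more in R, WT had 15.5%, WWD 5.47% and TKO 0.151%, and WWD exceeded WT in 0. The WWD gain as a share of the WT gain went down in every step, from 129.6% in the 1210 tiles under 0.1% in R to 34.6% in the highest class. In the lowest class the means were 0.157% in WT, 0.164% in WWD and 0.133% in TKO, so 129.6% is a ratio of very small gains. The levels of WWD and WT were thus close where methylation was lowest and farthest apart where it was highest. The mitochondrial level was 0.129% in WWD against 0.0963% in WT, and its part in the shares of the lowest classes was not tested.

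**Figure D3:**
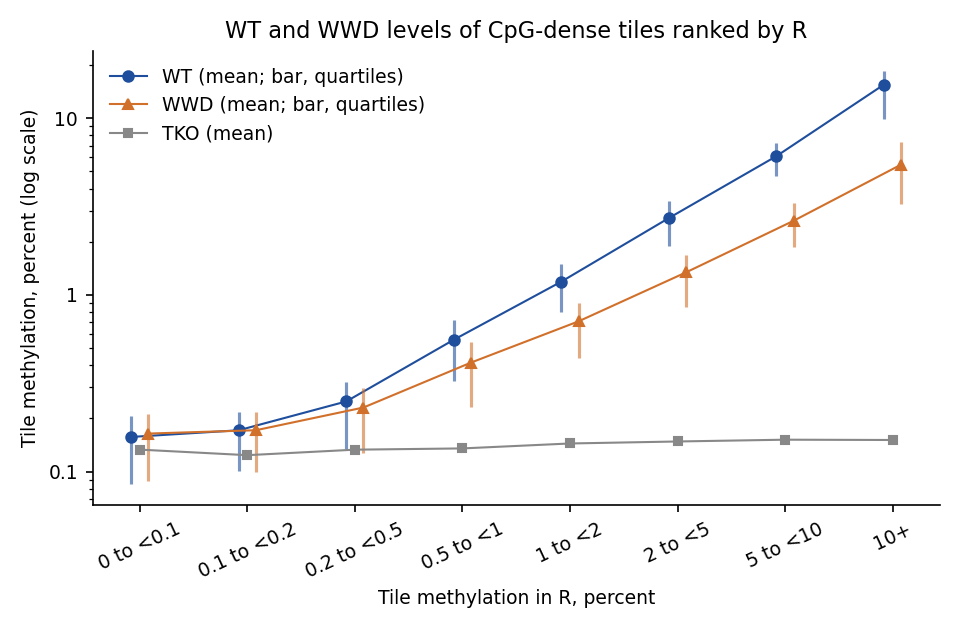
Mean tile methylation (percent, log axis) in WT, WWD and TKO for CpG-dense tiles grouped by their level in R (percent); vertical bars span the quartiles over tiles. WT and WWD coincide below 0.2% in R and separate above 0.5%, to 15.5% and 5.47% in the highest class, while TKO stays between 0.124% and 0.152%.

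The 10 tiles with the highest WT level held no base of a placed promoter. Only 8633 of 31396 promoter sequences could be placed, so some of these tiles may hold promoters that were not placed. The highest, chr12:30687001-30688000 (mm9), stood at 40.2% in WT, 38.2% in R, 11.1% in WWD, 0.386% in C and 0.0497% in TKO over 36 positions, from 4544 read calls in WT. Its positions ran from 8.43% to 70.3% in WT. WWD was 29.1 points below WT there (adjusted p = 3.81e-06, Fisher's exact test). The next, chr13:45663001-45664000, had 37.8% in WT, 37.2% in R and 14.3% in WWD, the highest WWD level of any CpG-dense tile. After it came chr11:115662001-115663000, with 33.4% in WT, 36.5% in R and 8.44% in WWD. In all 3, WT and R were close and WWD was at less than 40% of either. The other 7 ranged from 25.2% to 30.5% in WT, from 21.5% to 32.8% in R and from 5.08% to 11.2% in WWD. They were chr7:151596001-151597000, chr5:114245001-114246000, chr10:86371001-86372000, chr7:52262001-52263000, chr7:53050001-53051000, chr5:122319001-122320000 and chr17:24642001-24643000. Of the 10, the tile at chr7:52262001 lies within the length of Scaf1, which encodes a splicing-associated protein, and the one at chr5:122319001 within that of Cux2, a homeobox transcription factor. The 5 largest rises in WT over TKO and the 5 largest falls from WT to WWD were all among these 10.

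WWD was called above TKO in 5 tiles. Of these, 4 are among the 10 just named, and the other was chr11:3093001-3094000, with 24.5% in WT, 26.2% in R, 12.4% in WWD and 0.0611% in TKO over 19 of its 106 rows. This tile had 49091 read calls in WT although the median position was covered 53 times, so its reads were spread unevenly over its positions. On summed calls it stood at 20.3% in WT and 7.12% in WWD, a WWD level under the 10 points that the call required. Its WWD level was 9.09% without its highest position, which stood at 72.7%.

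CpG-dense tiles at gene starts were lower in WT, WWD and R than those within genes or elsewhere. Of 31396 autosomal promoter sequences, 15382 had at least 8 CpGs, and 8633, of 7674 genes, could be placed by their CpG spacing. As a check that the placement did not use, 8593 of them (99.5%) lay where their neighbours put them, to within 100000 bases, and only these were kept. In CpG-dense tiles lay 5290 promoters of 4727 genes. The 4618 tiles that held a base of a placed promoter had mean levels of 0.442% in R, 0.394% in WT, 0.279% in WWD and 0.132% in TKO. In the 1089 tiles elsewhere within a gene's length the means were 1.13% in WT, 0.604% in WWD, 1.22% in R and 0.131% in TKO. The 3170 tiles with neither had 0.873% in WT, 0.499% in WWD, 0.973% in R and 0.135% in TKO, and some of these may hold promoters that were not placed. A WT level of 1% or more was found in 7.17% of promoter tiles, 21.5% of tiles within genes and 18.2% of the rest. The order was the same at matched density: among tiles with 40 to 49 rows, WT had 0.624% at promoters, 1.78% within genes and 1.37% elsewhere. For the 274 tiles of chromosome 18 no class was set.

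Along the distance from the start, single positions showed a trough at the start itself. Within the first 250 bases downstream, 70050 positions averaged 0.262% in WT, 0.218% in WWD, 0.293% in R and 0.124% in TKO. From 500 to 750 bases downstream the means were 0.546% in WT and 0.365% in WWD, and from 2000 to 5000 bases 1.92% and 0.925%. Upstream the rise was smaller, to 1.08% in WT and 0.713% in WWD at 1000 to 2000 bases before the start. The trough was present in WT, WWD and R, while TKO stayed between 0.123% and 0.150% in every bin. Median WT coverage was 133 to 145 reads in the bins.

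**Figure D4:**
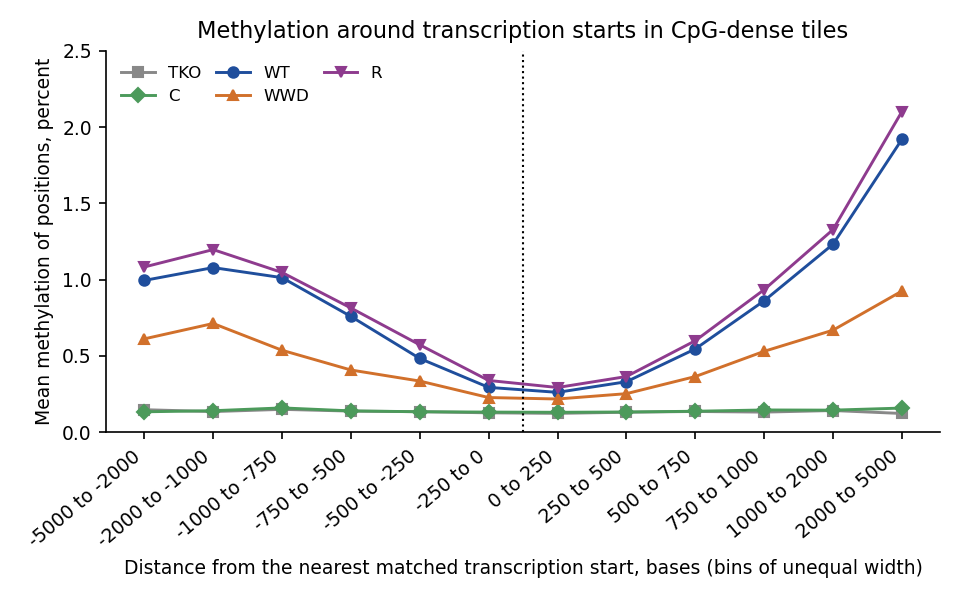
Mean methylation of positions in CpG-dense tiles (percent) in the 5 pools by distance from the nearest placed transcription start (bases, upstream negative, bins of unequal width; the dotted line marks the start). WT is lowest at 0.262% just downstream of the start and reaches 1.92% at 2000 to 5000 bases downstream.

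Among the gene lists, the germline genes had the highest median. The 4 of 32 germline genes whose promoters lay in CpG-dense tiles, Dazl, Ddx4, Mael and Smc1b, all reached 1% in WT, with a median of 9.25% in WT, 8.67% in R and 3.63% in WWD. Over all 4727 genes the medians were 0.186% in WT, 0.180% in WWD and 0.210% in R, and 311 genes (6.58%) reached 1% in WT. The promoter tile of Dazl, an RNA-binding protein needed for germ cell development, stood at 9.62% in WT, 10.1% in R and 5.17% in WWD, against 0.0923% in TKO and 0.203% in C. Within the promoter window printed above, its 8 usable CpGs averaged 30.3% in WT, 21.7% in WWD and 33.0% in R, at a median WT coverage of 83 reads. TKO and C had no methylated read there, which allows up to 0.432% and 0.401% (3 reads of 695 and of 749). All 8 were at 5% or more in WT, the highest at 48.2%.

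Ddx4, the germ cell RNA helicase also known as Vasa, had 8.89% in WT, 7.45% in R and 3.22% in WWD, against 0.0682% in TKO and 0.0947% in C. Mael, which acts in the piRNA pathway that silences transposons, had 10.5% in WT, 9.89% in R and 4.05% in WWD, against 0.373% in TKO and 0.388% in C. Both had low levels in TKO and C and a WWD level less than 50% of WT. Smc1b, a cohesin subunit of meiotic chromosomes, had 1.88% in WT, 2.77% in R and 0.525% in WWD over its tile, but its promoter window held only 0.0494% in WT. Against TKO, Mael rose in WT by 10 points or more and was called (adjusted p = 0.00222, Fisher's exact test). Dazl (adjusted p = 0.00472) and Ddx4 (adjusted p = 0.000868, both Fisher's exact test) passed on p but fell short of 10 points, and Smc1b did not pass (adjusted p = 0.874). Of all 4727 genes, 6 (0.127%) had a tile called in WT. Between WWD and WT, 0 of the 4 were called, with adjusted p from 0.287 for Ddx4 to 1 for Dazl and Smc1b in Fisher's exact test, so this test did not separate their lower WWD levels from WT.

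Developmental regulators, many of them known Polycomb targets in embryonic stem cells, were mostly under 1% in WT. Of 54 listed, 13 were placed, and 2 of these (15.4%) reached 1% in WT, against 6.58% of all 4727 genes. Medians for this list were 0.339% (WT), 0.309% (WWD) and 0.388% (R), above the 0.186%, 0.180% and 0.210% of all genes. Whether the list differs from all genes was not tested, and its placed members are few. En1, a homeobox factor of the midbrain and limb, had 8.48% in WT, 10.4% in R and 4.07% in WWD, against 0.219% in TKO and 0.0706% in C. These are levels of its tile, and the 12 usable positions of its promoter window averaged 4.26% in WT, 5.31% in R and 2.30% in WWD. En1 was the only member called in R against TKO (adjusted p = 5.78e-05, Fisher's exact test), and 0 were called in WT. Among all 4727 genes 11 (0.233%) were called in R and 6 in WT. Foxa2, a factor of endoderm, had 1.12% in WT, 0.403% in WWD and 1.57% in R. Gata2, Hoxa13, Hoxd13, Isl1, Lhx2, Msx1, Neurog1, Nkx6-1, Pax2, Pax7 and Six2 lay between 0.114% for Isl1 and 0.854% for Pax7 in WT.

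The members of the other lists all lay under 1% in WT. Housekeeping genes (3 of 16 placed: Eef1a1, Eif4a2 and Polr2a) ran from 0.129% to 0.313% in WT and from 0.0989% to 0.285% in WWD. Pluripotency genes (4 of 22: Fgf4, Klf2, Klf4 and Tfcp2l1) ran from 0.0775% to 0.264% in WT and from 0.160% to 0.703% in WWD. Klf4, one of the reprogramming factors, had 0.112% in TKO, 0.229% in WT, 0.228% in WWD and 0.163% in R. Imprinted genes (4 of 25: Gnas, Grb10, Igf2r and Plagl1) ran from 0.109% to 0.889% in WT, with a median of 0.332% and with Igf2r, a receptor that clears the growth factor IGF2, the highest. The 8 of 20 placed genes for the CpG methylation machinery and CpG island binding proteins (Dnmt3a, Dnmt3b, Gadd45a, Kdm2b, Kmt2a, Tet2, Tet3 and Uhrf1) ran from 0.0411% to 0.265% in WT. None of their 19 tiles was called, and with so few genes called among all 4727 that count says nothing about these lists. The placed members are few, and promoters that were not placed are not analysed here.

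**Figure D5:**
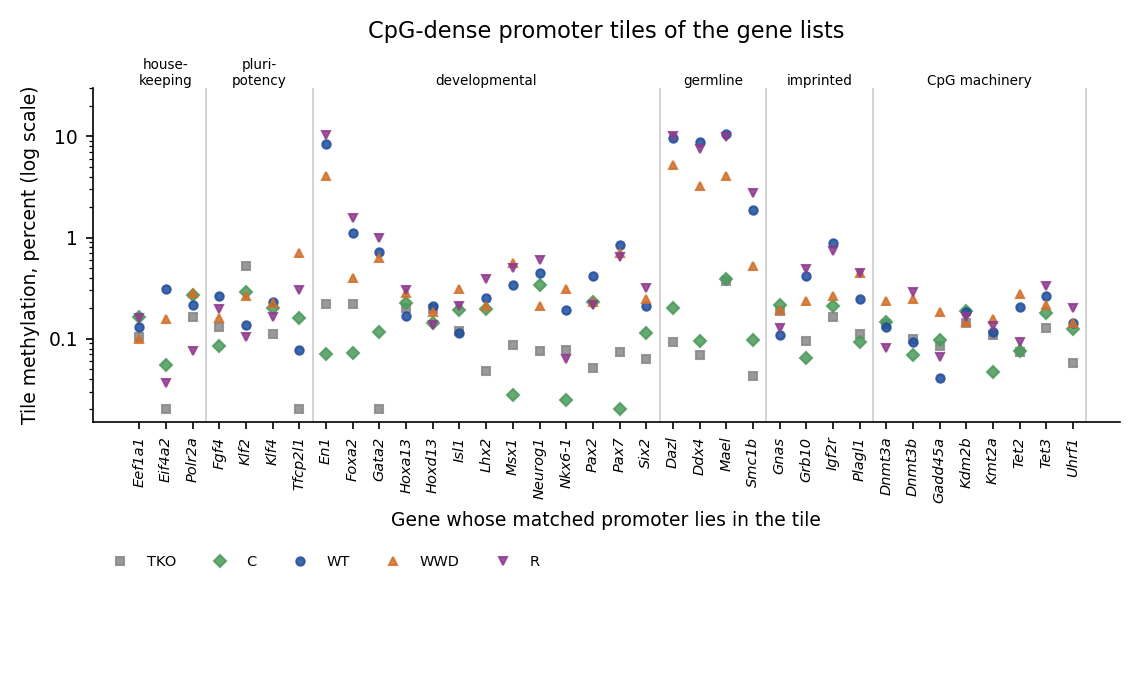
Methylation of the CpG-dense promoter tile of each listed gene (percent, log axis; values under 0.02% are drawn at 0.02%), with 1 symbol per pool and vertical lines between lists. Dazl, Ddx4, Mael and En1 lie at 8.48% to 10.5% in WT and at 3.22% to 5.17% in WWD, and the housekeeping, pluripotency, imprinted and CpG machinery genes lie under 1% in all pools.

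Promoter tiles outside the lists, picked after their values were seen, also reached levels above 5% in WT. The promoter tile of Atf7ip, a partner of the histone methyltransferase SETDB1, which also holds the start of Gm44140, had 15.2% in WT, 9.43% in R, 1.68% in WWD and 0.0479% in TKO. The difference of R from WT was -5.72 points here, the farthest below 0 of any CpG-dense tile (adjusted p = 1 in Fisher's exact test). Rgcc, a regulator of the cell cycle, had 14.6% in WT, 2.66% in WWD and 17.4% in R. Hoxd12, of the HoxD cluster, had 13.3%, 4.80% and 14.7%, while the tile of its neighbour Hoxd13 had 0.210%, 0.183% and 0.136%. Cyp2r1, a vitamin D hydroxylase, had 7.94% in WT, 1.63% in WWD and 8.21% in R. Prpf39, a splicing factor, had 7.07%, 0.909% and 4.35%, and Klhl9, an adaptor of a ubiquitin ligase, 5.05%, 0.395% and 1.89%. These are levels of whole tiles. In the promoter windows WT had 5.27% for Rgcc, 15.5% for Hoxd12, 9.71% for Cyp2r1, 7.07% for Prpf39 and 4.68% for Klhl9. The windows of Rgcc and Hoxd12 had only 3 and 4 usable positions. Over their tiles, Atf7ip, Prpf39 and Klhl9 were lower in R than in WT and had the lowest WWD levels relative to WT of these genes. In the tiles of Rgcc, Hoxd12 and Cyp2r1, R was above WT. No difference between R and WT passed the test. The largest excess of R was at chr1:189432001-189433000, which holds a start of the nuclear receptor gene Esrrg, with 13.4% in WT, 18.99% in R and 4.52% in WWD.

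WWD exceeded both WT and R in 2193 CpG-dense tiles (23.96%). WT was the highest of these constructs in 2825 tiles (30.9%), R in 4127 (45.1%), and 6 were tied. WWD was thus less often the highest than either. The excess over the higher of WT and R had a median of 0.0727 points and a largest value of 1.09. It reached 0.25 points in 219 tiles, 0.5 in 39 and 1 in 1. In the 2193 tiles the median level was 0.268% in WWD, 0.148% in R, 0.141% in WT, 0.114% in C and 0.109% in TKO, and 95.4% of them had under 0.5% in WT. They were thus tiles with almost no methylation in WT or R, as were most CpG-dense tiles. Over all 9151 tiles the upper quartile was 0.461% in WT and 0.538% in R. Since the tiles were chosen for WWD above WT and R, a rule that favours low WT and R levels, these values are a description, with no test.

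The same selection on TKO and on C found fewer tiles. TKO exceeded both WT and R in 1167 tiles (12.8%) and C in 1217 (13.3%), and by 0.25 points in 76 and 78. Over all CpG-dense tiles the median was 0.111% in TKO and 0.117% in C against 0.209% in WWD. Fewer tiles were thus likely in advance, and these counts give no yardstick for WWD. WWD exceeded all 4 other pools in 1746 tiles. The mitochondrial level was 0.129% in WWD against 0.0963% in WT and 0.0830% in R. With each pool's mitochondrial level subtracted, WWD exceeded both WT and R in 1497 tiles (16.4%) and no longer in the rest of the 2193. Whether the mitochondrial level is the background of these tiles was not tested. Without the filter on TKO depth the count was 4022 of 9303 tiles (43.2%). The share rose with density, from 22.1% of tiles with 40 to 49 rows to 26.2% of those with 100 or more. It was 26.3% in tiles with a placed promoter and 20.9% in tiles with neither a placed promoter nor the length of its gene. Some of the latter may hold promoters or genes that were not placed.

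The tile with the largest excess held the promoter of Upf2, a factor of nonsense-mediated decay, at chr2:5872001-5873000. Over 45 positions it stood at 1.29% in WWD, against 0.199% in R, 0.165% in WT, 0.0898% in C and 0.0758% in TKO. Only 8 of its positions had a methylated read in WWD, and 2 CpGs at the end of the printed promoter were at 5% or more, the higher at 17.9%. Its methylated calls were 35 of 6099 in WWD, 8 of 5851 in WT and 7 of 6572 in R. Without its highest position the WWD level was 0.909%.

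The other 9 tiles of largest excess ranged from 0.839% to 1.96% in WWD, from 0.0350% to 0.696% in WT and from 0.0157% to 1.19% in R. The tile at chr14:35316001-35317000, 269 bases upstream of the start of the BMP receptor gene Bmpr1a, had 1.18% in WWD, against 0.0350% in WT and 0.419% in R. Without its highest position its WWD level was 0.440%, and methylated calls were 18 of 3713 in WWD and 15 of 4077 in R. The promoter tile of Traf3, an adaptor of immune signalling, at chr12:112404001-112405000, had 1.15%, against 0.399% and 0.181%. On summed calls its order turned, with 12 methylated of 4430 in WWD and 19 of 4392 in WT, and its promoter window had 0.0636% in WWD and 0.911% in WT. The tile at chr9:63870001-63871000, near the start of Smad6, an inhibitor of BMP signalling, had 0.973%, against 0.189% and 0.0157%. TKO had 0.471% there, from 3 methylated calls, and C had 0 of 1396, which allows up to 0.215%. At chr17:26853001-26854000, in Crebrf, WWD had 0.963%, TKO 0.555%, C 0.208% and WT 0.0527%. The tile at chr11:118917001-118918000, with 0.696% in WT, 1.96% in WWD and 1.19% in R, had a methylated read in WWD at 29 of 44 positions, more than any other of the 10. The rest were chr4:70195001-70196000 at Megf9, chr11:107408001-107409000, chr11:62462001-62463000 and chr8:26707001-26708000. Without each tile's highest position the WWD levels of the 10 ran from 0.318% to 1.72%. In all 10 the excess rested on few reads, with 9 to 95 methylated calls per tile in WWD.

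Local spacing of CpGs within the tiles ordered the levels further. Positions with 0 to 3 other covered CpGs within 50 bases averaged 2.17% in WT, 0.970% in WWD, 2.30% in R and 0.176% in TKO. Those with 13 or more averaged 0.237%, 0.197%, 0.267% and 0.124%. Crowded positions were thus the lower in WT, WWD and R, and TKO changed little. Median WT coverage went from 143 to 130 reads over the same classes.

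The bases around a CpG could be read at 67944 positions within placed promoters. CpGs of a CCGG site, where MspI cuts, averaged 0.408% in TKO and 0.538% in WT, and the other 55937 averaged 0.0661% and 0.233%. The TKO signal in promoters was thus higher at the cut sites than elsewhere. Away from them, CpGs followed by C averaged 0.301% in WT, 0.231% in WWD and 0.374% in R, and those followed by G 0.142%, 0.114% and 0.168%. In TKO the order was the opposite, 0.0562% before C and 0.0885% before G. Those followed by T or A lay between in WT, at 0.226% and 0.189%.

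Letters of 2 motifs were looked for in the promoters of the 4727 genes, on both strands. CACGTG, the E-box bound by MYC-type factors, which reads the same on both strands, was in 10.7% of all promoters, in 15.4% of the 311 with 1% or more in WT, in 10.4% of the rest and in 8 of the 29 at 5% or more. It was present in the windows of Ddx4 and Mael and not in those of Dazl and Smc1b. TCCCGC, the core bound by E2F-type factors, was in 49.4% of all promoters, 49.5% of the 311, 49.3% of the rest and 10 of the 29 at 5% or more. The 2 motifs can share only an end base. Promoters at 1% or more in WT had a median of 27 CpGs and 68.3% GC, against 31 CpGs and 69.0% GC in the rest, over 300 bases.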

How the data were processed

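Per the labels' protocols, DNA was cut with MspI, size-selected, converted with bisulfite and sequenced. Per the submitters' processing notes, Bismark, methylKit and the mm9 build were used. Per the file headers, the deposited tables give a count of reads (coverage) and the percent of C for each CpG position and strand. The authors' table for AAA, tied to no sample in the labels, was not used, and in all 8 columns of values were not. The labels name 1 table for both samples of a group, so it was taken as their pool, an assumption not tested on the values.

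A tile's level is the mean percent of C over its usable positions, and 163 dense tiles with under 10 such positions were dropped. Methylated counts were recovered as coverage times percent. Dividing both counts by the tile's number of CpG positions keeps 1 read from counting once per CpG. Fisher's exact test then used rounded counts. Wilson intervals on summed calls count a read once per CpG and are too narrow. Reads copied by PCR were not separated from other reads. In simulated reads 0 of 19239 unchanged tiles were called. Both pools were drawn there at the same tile level, without PCR copies or spread between samples. Few calls were thus likely in advance, and the count gives no rate of false calls for the real reads.

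Promoters were placed on mm9 by exact CpG spacing: at least 8 covered CpGs on the promoter's CpGs, no covered CpG off them, and 1 best place on the chromosome. No coordinates were converted. A gene's length came from RefSeq.

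Named tiles were the 10 highest in WT, the 10 with the largest WWD excess and the 5 largest rises and falls called per comparison, with genes in them or in the lists. The members, lists and tests were chosen with earlier results of these data known. Python 3.11.15, pandas 2.3.3, NumPy 2.4.6, SciPy 1.17.1, statsmodels 0.14.6, numba 0.67.0 and matplotlib 3.10.9 were used. Alternatives changed coverage, depth ratio, positions per tile, density, tile borders, weighting, test and thresholds.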

Additional observations from a re-analysis of the deposited data

How the results depend on the processing

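The rank of the mean levels, from R over WT, WWD and C down to TKO, held under all 6 changes of tiles and positions except without the depth ratio filter, where C (0.159%) lay below TKO (0.305%). No paired analysis was possible because each group has 1 pooled table with no numbered columns, and for the same reason no replicate could be left out. Without the depth ratio filter WT was 0.724%, WWD 0.666% and R 0.848%, the WWD gain was 86.1% of the WT gain, WWD exceeded WT and R in 4022 tiles and was called above TKO in 15. The cause was not tested. With at least 30 reads per position R, WT, WWD, C and TKO were 0.715%, 0.645%, 0.393%, 0.137% and 0.129%, and the WWD gain was 51.1%. With at least 20 positions per tile they were 0.674%, 0.608%, 0.377%, 0.138% and 0.131%, the gain was 51.5%, and calls were 2 for WWD against TKO, 2 against WT and 4 against R. With 60 or more rows, which leaves 5150 tiles, they were 0.469%, 0.415%, 0.293%, 0.137% and 0.13%, the gain was 57.1%, WWD exceeded both in 1285, and calls were 8 for WT, 1 for WWD and 10 for R against TKO, and 1 and 2 for WWD against WT and R. With tiles shifted by 500 bases WT, WWD and R were 0.673%, 0.404% and 0.745%, the gain was 50.1%, and WWD was called above TKO in 11. With summed reads as the level TKO was 0.127%, C 0.138% and WWD 0.393%. Testing summed reads called WWD below WT in 25 and below R in 29, and an adjusted p under 0.05 called 23 below WT. A limit of 5 points called 116, 16 and 138 tiles for WT, WWD and R against TKO. Subtracting mitochondrial levels, added after seeing the data, gave a gain of 47.2%. At the depth of these tables and with the limit of 10 points, of simulated falls 1 of 50 at 5 points, 0 of 50 at 10, 20 of 50 at 20 and 47 of 50 at 30 were called. These falls started from a WT level far above that of most CpG-dense tiles, so they do not give the reach of the test there.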

Other observations

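WWD lay below WT in mean level on each of the 19 autosomes. The mean WT level of CpG-dense tiles ran from 0.481% on chromosome 16 to 0.892% on chromosome 7, and the WWD gain over TKO ran from 44.0% of the WT gain on chromosome 12 to 60.5% on chromosome 16. The difference between WT and WWD thus did not rest on 1 chromosome.

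CpG-dense tiles formed 7732 runs of adjoining tiles, the longest of 6. The 6187 tiles that stood alone averaged 0.768% in R, 0.692% in WT and 0.410% in WWD, the 2560 in runs of 2 had 0.600%, 0.542% and 0.352%, and the 404 in runs of 3 or more had 0.804%, 0.721% and 0.453%.

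Among promoter windows with at least 10 usable positions, chosen after their values were seen, Sphk1, a sphingosine kinase, had 0.139% in TKO, 7.64% in WT, 6.68% in WWD and 9.48% in R, so WWD lay closer to WT than in Atf7ip, at 15.6% in WT and 2.10% in WWD. Promoter windows of E2f6, a repressor of germline genes, and Sox30, a factor of male germ cells, had 5.07% and 4.61% in WT and 1.77% and 1.56% in WWD.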
